A study of Mus musculus with 2 samples.

Results

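Fatty acid oxidation, ketone body formation and lipid synthesis were described in mouse liver cells by 38 genes of these pathways. They were looked up in 2 tables of cluster markers from single-cell RNA sequencing (scRNA-seq), of which the table of hepatocytes holds 1604 genes and the table of all cells 1755, together 2783. The hepatocyte table listed 22 of the 38 and the table of all cells 12, all of them among the 22. Neither table listed the other 16, namely Cpt2, Fabp1, Acadl, Acads, Hadha, Hadh, Acaa2, Decr1, Acaa1a, Eci2, Acat1, Bdh1, Acaca, Acacb, Fasn and Elovl6.

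The cells came from livers of fasted wild type BALB/c males. The treated mice had received rIL-33, 0.5 µg on each of 5 days by intraperitoneal injection, and the controls PBS on the same days, and the labels give no age. Hepatocytes were released by perfusion with Liberase and loaded without sorting. There was 1 droplet-based 10× Genomics 3ʹ library for each condition, 2 in all. The tables pool the cells of both libraries, so no value could be given for PBS or rIL-33 apart, no spread between animals exists, and no test was run. The number of animals behind each library is not given in the sources used here.

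Hepatocytes both burn and make fat. In fasting, fatty acids are activated to acyl-CoA, enter mitochondria as acylcarnitines through Cpt1a and Cpt2, and are shortened by β-oxidation, while very long and branched chains are shortened in peroxisomes. The acetyl-CoA that results feeds ketone bodies, which the liver exports. In the fed state, citrate is turned back into fatty acids by Acly, Acaca and Fasn, and the products are desaturated, elongated, joined to glycerol and secreted in very low density lipoprotein (VLDL).

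Each row of the tables gives 2 shares for a gene, namely the percentage of cells in which it was detected (any value above 0) in the named cluster and the same percentage in the reference cells, which are the other hepatocytes in the hepatocyte table. These are the authors' values over pooled cells, printed without an error because the tables do not give the cell numbers behind them. In every row the authors' mean was higher in the cluster, by at least 0.25 on the log2 scale, and at least 1 of the 2 shares reached 25%. Absence from the tables gives no level for a gene and does not mean that it was silent. The authors named 5 hepatocyte clusters. From genes listed for several clusters, Hepatocyte1 was computed to hold 55.6% of the hepatocytes, Hepatocyte4 18.1%, Hepatocyte2 14.9%, Hepatocyte3 10.1% and Hepatocyte5 1.47%. A share also rises with the number of transcripts counted per cell, which the tables do not give, and its part in the differences below was not tested. The 5 genes set as hepatocyte markers (Alb, Ttr, Apoa1, Fgb and Serpina1c) were all in the hepatocyte table with shares of 91.9% or more in and outside the listing cluster, and 0 of the 32 markers of 7 other cell types were listed for a hepatocyte cluster. In the table of all cells, where the reference includes non-hepatocytes, Alb was still detected in 100% of the cells outside Hepatocyte4, so its share did not set hepatocytes apart from other cells, and the cause was not tested.

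Short stretches of DNA are shown because the start sites of the listed genes were searched for motifs of lipid regulators. RefSeq start windows of GRCm38.p6, 300 bases long, were found for 31 of the 38 genes. The sterol response element, bound by the SREBP factors that drive lipid synthesis, was searched as TCACNCCAC on both strands. It was present in a window of Acsl1, Ehhadh and Hmgcs1, in each before the RefSeq start site. This is 9.68% of the 31 genes, against 1.44% of all genes with a window, both counted over the whole window. The hepatocyte table listed all 3 for Hepatocyte4, as it did 17 of the 22 listed genes, so nothing about the motif is read from this. The stretches run 5′ to 3′ along the gene, and capitals mark the motif or its reverse complement. That of Acsl1 lies at chr8:46490865-46490923 on the plus strand, that of Hmgcs1 at chr13:119690189-119690247 on the plus strand and that of Ehhadh at chr16:21787972-21788030 on the minus strand. The stretch of Acsl1 lies inside its GENCODE M21 gene model, which begins at 46471037, so it belongs to an internal start.
Acsl1: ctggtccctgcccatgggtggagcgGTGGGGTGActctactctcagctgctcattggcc
Hmgcs1: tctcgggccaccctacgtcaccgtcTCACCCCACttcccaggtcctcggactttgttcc
Ehhadh: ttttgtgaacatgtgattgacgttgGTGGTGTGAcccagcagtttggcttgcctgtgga

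Counted from the RefSeq start site of the window, the motif began at -137 in Hmgcs1, at -76 in Acsl1 and at -171 in Ehhadh. A repeat of AGGTCA with 1 base between the copies, the form bound by PPARα with RXR, was found in 0 of the 31 genes and in 0.0481% of all genes. The HNF4 core CAAAGTCCA was also found in 0 of the 31 (0.555% of all genes). The TATA box TATAAA was found in Fabp1 and Acacb, 6.45% of the 31 against 15.7% of all genes, and neither of these was listed for a cluster. The Acacb window with the match also lies inside its gene model, which begins at 114146535. These windows reach only 250 bases before each start, and a match is a description of letters, not of binding.

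The listed genes were spread unevenly over the hepatocyte clusters. Hepatocyte4 listed 17 of the 22 (77.3%), where it listed 54.7% of all genes in the table. Hepatocyte5 listed 12 of the 22 (54.5%), next to 54.3% of all genes. Of the 22 genes, 11 (50%) were listed for both Hepatocyte4 and Hepatocyte5, against 26.8% of all genes. Taken as either of these clusters, however, the 18 of 22 genes (81.8%) lay next to the background of 82.2%. Hepatocyte3 listed 2 genes (9.09%, background 7.67%), Hepatocyte1 listed 1 (4.55%, background 10.5%) and Hepatocyte2 also 1 (4.55%, background 3.49%). No test of these counts was made.

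**Figure D1:**
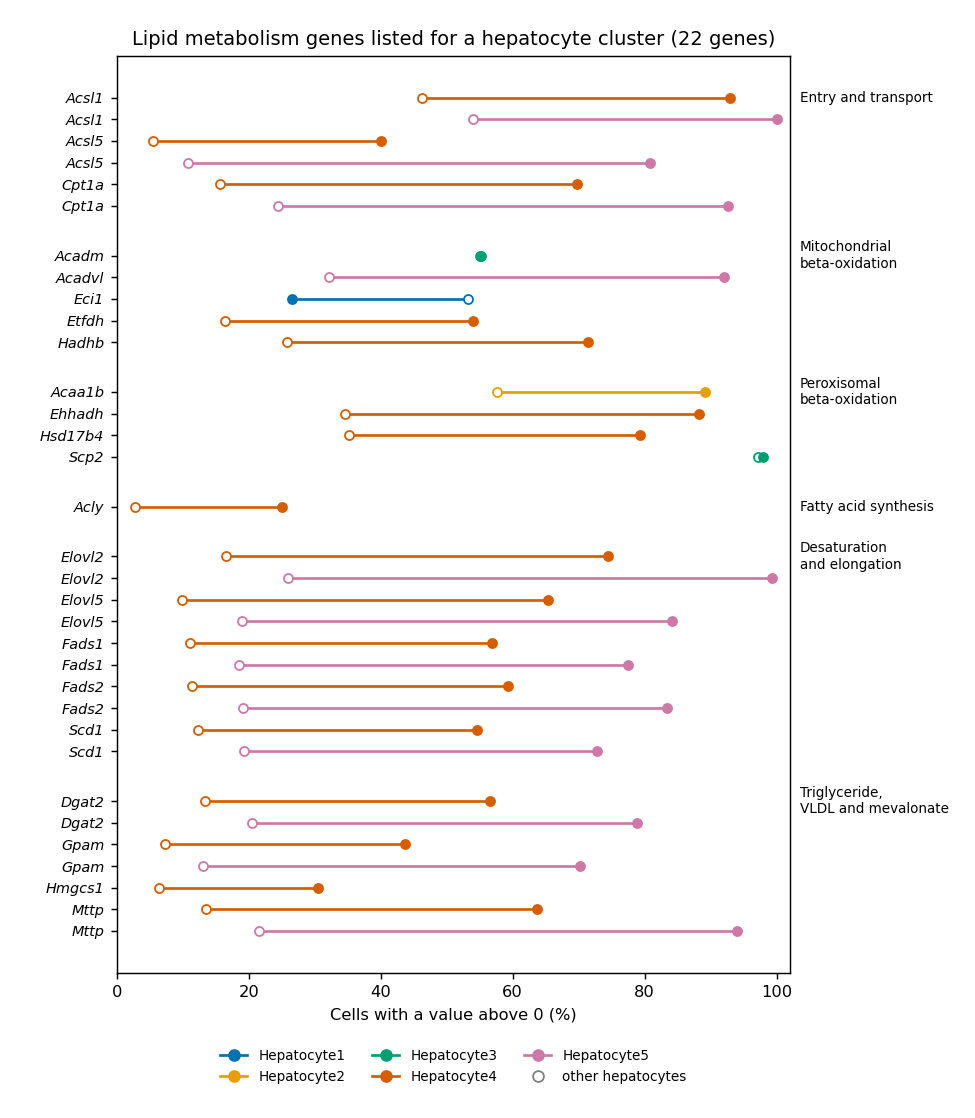
Cells with the gene detected (x axis, %) for the 22 listed genes (y axis, 1 line for each listing, grouped by role). Filled points are the named cluster, open points the other hepatocytes. All Hepatocyte4 and Hepatocyte5 lines run to the right, Eci1 in Hepatocyte1 runs to the left, and the 2 points of Acadm and Scp2 in Hepatocyte3 nearly coincide.

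Genes of fatty acid activation and entry were listed for Hepatocyte4 and Hepatocyte5 alike. Cpt1a, the outer membrane carnitine palmitoyltransferase that controls entry into mitochondria, was detected in 69.8% of Hepatocyte4 and in 15.6% of hepatocytes outside it. In Hepatocyte5 its share was 92.7% against 24.4%. Acsl1, the main long-chain acyl-CoA synthetase of liver, was found more broadly, in 93.0% of Hepatocyte4 against 46.2% of other cells and in 100% of Hepatocyte5 against 54%. Acsl5, a second synthetase, was rare among the other hepatocytes in the hepatocyte table. It was detected in 40.0% of Hepatocyte4 against 5.5%, a 7.27-fold higher share, and in 80.8% of Hepatocyte5 against 10.7%, a 7.55-fold higher share. Among the 871 genes of Hepatocyte5, its gap of 70.1 percentage points ranked 46. In Hepatocyte4, its gap of 34.5 points ranked 402 of 877. In the table of all cells, Acsl5 was detected in 27% of cells outside Hepatocyte4 and in 32.1% outside Hepatocyte5. The ratios of shares there were 2.33 and 2.87. Its shares inside the clusters were also higher there, 63% in Hepatocyte4 and 92.1% in Hepatocyte5. The values thus differ between the tables, and nothing about Acsl5 in non-hepatocytes is read from the shares outside. Of the remaining entry genes, neither Cpt2, the inner membrane partner of Cpt1a, nor Fabp1, the abundant fatty acid binding protein of liver, was listed for any cluster.

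The enzymes of mitochondrial β-oxidation were spread over several clusters. Of 11 genes, 5 were listed, each for a single cluster, and 4 different clusters took part. Of all 1604 genes in the hepatocyte table, 486 were listed for at least 2 clusters. A single listing was thus the more common case, and nothing particular to these enzymes is read from it. Acadvl, the very long chain acyl-CoA dehydrogenase of the first step, was listed for Hepatocyte5, with 92.1% against 32.1% of the other hepatocytes. Hadhb and Etfdh were listed for Hepatocyte4. Hadhb, the thiolase subunit of the trifunctional protein, was detected in 71.4% of Hepatocyte4 against 25.7%, and Etfdh, which passes electrons to ubiquinone, in 53.9% against 16.3%.

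For the other 2 enzymes, the share in the listing cluster was nearly equal to that outside it or lower. Acadm, the medium chain dehydrogenase, was listed for Hepatocyte3 with 55.2% in the cluster and 55.1% outside it. Eci1, an enoyl-CoA isomerase needed for unsaturated chains, was listed for Hepatocyte1, yet its share was 26.5% there and 53.2% in the other hepatocytes, which is -26.7 percentage points. This was the rule rather than the exception in Hepatocyte1, where 159 of 169 listed genes had the lower share in the cluster and the median difference was -22.8 points. The authors scaled each cell to a common total before taking means, whereas the share of cells is not scaled, and the part of this step was not tested.

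Hadha and Hadhb encode both subunits of the trifunctional protein and lie head to head on chromosome 5 of GRCm38. The GENCODE M21 models of Hadha (30118304 to 30155162, minus strand) and Hadhb (30155248 to 30184593, plus strand) leave 85 bases between them. The stretch is shown because both subunits start from it while the table listed Hadhb alone. It spans chr5:30155163-30155247 and is printed on the plus strand.
Hadha to Hadhb: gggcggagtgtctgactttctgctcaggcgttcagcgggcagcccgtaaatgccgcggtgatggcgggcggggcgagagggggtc

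The missing row for Hadha gives no level and no difference between the subunits. Of the windows of 89 bases, the length of the sequenced transcript read, in the last 500 bases of the Hadhb transcripts, 22.0% also occur in another annotated gene, chiefly Gm13910. Reads from such windows could not be assigned to a single gene by sequence.

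Of 6 genes of peroxisomal β-oxidation, 4 were listed, each for a single cluster, and 3 clusters took part. Of all 1604 genes in the hepatocyte table, 486 were listed for at least 2 clusters. Ehhadh, the bifunctional enzyme and a classical PPARα target, was listed for Hepatocyte4 with 88.2% against 34.5%. Its gap of 53.7 points ranked 48 of 877 genes. In the table of all cells, its gap of 35.6 points ranked 189 of 443. Hsd17b4, the second bifunctional enzyme, was listed for the same cluster with 79.3% against 35.1%. Both were absent from the list of Hepatocyte5, so no share in that cluster can be given for them.

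Acaa1b, a peroxisomal thiolase, was the only gene of the 38 listed for Hepatocyte2, with 89.1% of cells against 57.6%. Its near-identical neighbour Acaa1a was not listed. They lie 182582 bases apart on chromosome 9 of GRCm38, Acaa1b from 119148023 to 119157093 on the minus strand and Acaa1a from 119339676 to 119350299 on the plus strand. Of the 89-base windows at the 3ʹ end of Acaa1b, 23.5% occur in Acaa1a too, so the split of reads between the pair is uncertain. Scp2, the sterol carrier protein and thiolase, was found in nearly every hepatocyte, with 97.9% in Hepatocyte3 and 97.2% outside. It shares 26.6% of its 3ʹ windows with the pseudogene Scp2-ps2.

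No gene of the ketone body pair was listed. Acat1, which joins and splits acetoacetyl-CoA, and Bdh1, which reduces acetoacetate to β-hydroxybutyrate, appeared in neither table. Among 7 further ketone body genes, the hepatocyte table listed 2, of which 1 for Hepatocyte4 (background 54.7%) and 1 for Hepatocyte5 (background 54.3%). With so few genes, nothing about ketone body formation is read from these counts. Slc16a1, a monocarboxylate transporter that carries ketone bodies and lactate, was listed for Hepatocyte5 with 51.0% against 5.4%.

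Of the 4 genes grouped as fatty acid synthesis, 1 was listed, for Hepatocyte4, which listed 54.7% of all genes in the table. With so few genes, nothing is read from this count. Acly, which releases cytosolic acetyl-CoA from citrate, was found in 25% of Hepatocyte4 and 2.8% of the other hepatocytes. This is the lowest cluster share of the 17 genes listed for Hepatocyte4 and lies at the listing limit of 25%, while its ratio of 8.93 is the highest. Acaca and Acacb, both acetyl-CoA carboxylases, and Fasn, the fatty acid synthase, were not listed.

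Of 6 desaturases and elongases, 5 were listed, and all 5 for both Hepatocyte4 and Hepatocyte5, as were all 3 listed entry genes. Of all genes in the table, 26.8% were listed for both. Elovl2, which elongates long polyunsaturated chains, was detected in 74.5% of Hepatocyte4 against 16.6%, a gap of 57.9 points and rank 18 of 877. In Hepatocyte5 it reached 99.3% against 26.0%, rank 21 of 871. In the table of all cells it ranked 157 of 443 for Hepatocyte4 and 187 of 434 for Hepatocyte5. Elovl5, which acts earlier in the same pathway, was found in 65.3% of Hepatocyte4 against 9.9% and in 84.1% of Hepatocyte5 against 19.0%.

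Fads1 and Fads2 are the front-end desaturases that work with Elovl2 and Elovl5 to turn dietary essential fatty acids into arachidonic and docosahexaenoic acid. They had similar values. Fads1 was found in 56.8% of Hepatocyte4 against 11.1% and Fads2 in 59.3% against 11.3%, and in Hepatocyte5 the shares were 77.5% against 18.5% and 83.4% against 19.1%. These genes lie 81141 bases apart on chromosome 19 of GRCm38 in opposite directions, Fads2 from 10062765 to 10101746 and Fads1 from 10182888 to 10196877. Their 3ʹ ends share 0 of 1161 windows, so reads of this pair can be told apart.

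Scd1, the desaturase that makes oleate, was found in 54.6% of Hepatocyte4 against 12.3% and in 72.8% of Hepatocyte5 against 19.2%. Elovl6, which elongates palmitate, was not listed.

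All 4 genes of triglyceride assembly, VLDL and mevalonate were listed for Hepatocyte4, which listed 54.7% of all genes in the table. Mttp, which loads triglyceride onto apolipoprotein B, was found in 63.7% of Hepatocyte4 against 13.5% and in 94.0% of Hepatocyte5 against 21.6%. Dgat2, which adds the last fatty acid to a triglyceride, was found in 56.6% against 13.4% and in 78.8% against 20.4%. Gpam, which starts glycerolipid synthesis at the mitochondrial surface, was found in 43.6% against 7.3% and in 70.2% against 13.1%. Hmgcs1, the cytosolic synthase that leads to cholesterol, was listed for Hepatocyte4 alone, with 30.4% against 6.4%.

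In the hepatocyte table, the median gap of the listed genes was wider than that of all genes in the same lists. In Hepatocyte4 the median difference between the shares was 45.7 points over the 17 genes and 33.1 points over all 877 genes listed, and 15 of the 17 lay above that median. In Hepatocyte5 it was 62.2 points over 12 genes and 42.9 over all 871, and all 12 lay above it. In the table of all cells the medians lay closer together, at 35.9 points over 12 genes against 33.8 over all genes listed for Hepatocyte4, and at 47.5 over 11 genes against 44.6 for Hepatocyte5. In the hepatocyte table, the lowest in Hepatocyte4 were Acly (22.2 points, rank 781 of 877) and Hmgcs1 (24.0, rank 709). The lowest in Hepatocyte5 was Acsl1 (46.0, rank 382 of 871), whose share in other cells was already 54%. The median share outside the cluster was also higher for these genes than for all listed genes, 13.4% against 8.7% in Hepatocyte4 and 19.8% against 9.3% in Hepatocyte5.

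**Figure D2:**
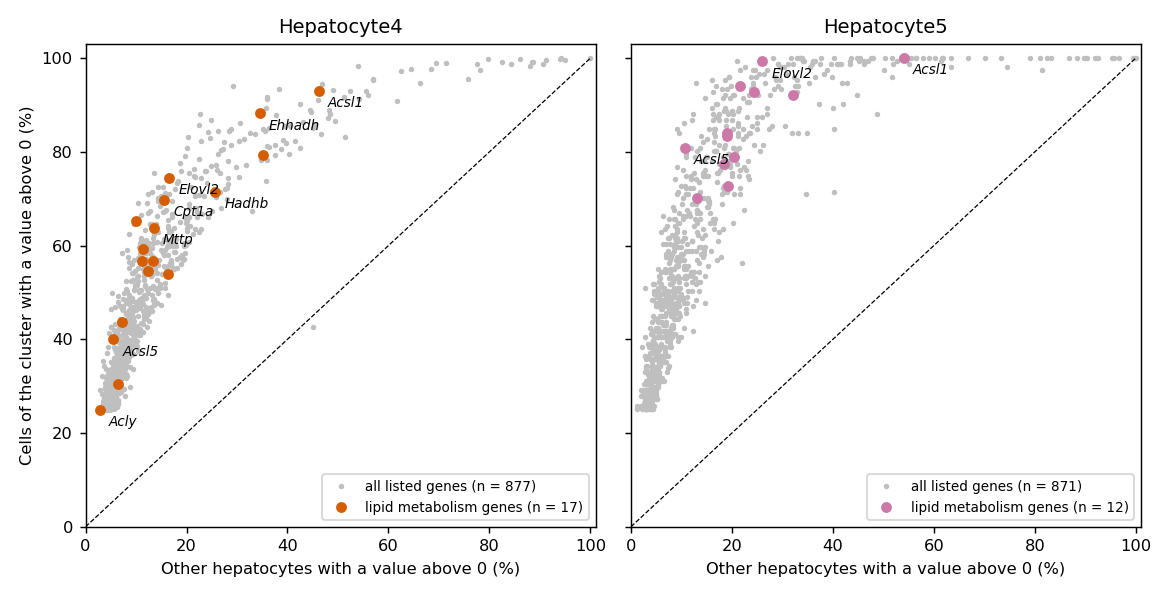
Cells with the gene detected in Hepatocyte4 (left) and Hepatocyte5 (right) on the y axis against the share in the other hepatocytes on the x axis, both in %. Grey points are all 877 and 871 listed genes, coloured points the 17 and 12 lipid metabolism genes, and the dashed line marks equal shares. The coloured points lie within the grey band, away from its lower left end except for Acly and Hmgcs1.

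For the 11 genes listed for both clusters, the share in the remaining hepatocytes of Hepatocyte1 to Hepatocyte3 was solved from the shares and the cluster sizes. It was 4.11% for Acsl5, 6.19% for Gpam and 8.55% for Elovl5 at the low end and 15.1% for Elovl2 and 45.2% for Acsl1 at the high end, with a median of 11.2%. The value for Cpt1a was 14.2% and that for Scd1 11.2%. In Hepatocyte5 the share exceeded that in Hepatocyte4 for all 11 genes, by 7.0 points for Acsl1 and up to 40.8 points for Acsl5, with a median of 22.9 points. Nearly every gene listed for both did the same (425 of 430, 98.8%, median 21.9 points), so this order was not particular to lipid genes.

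**Figure D3:**
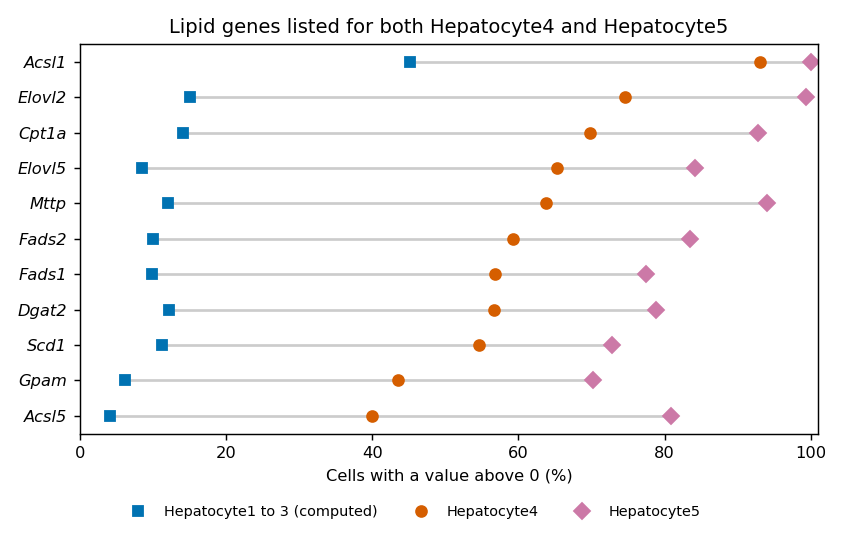
Cells with the gene detected (x axis, %) for the 11 genes listed for both Hepatocyte4 and Hepatocyte5 (y axis). Squares are the computed share in Hepatocyte1 to Hepatocyte3 together, circles Hepatocyte4 and diamonds Hepatocyte5. The order is the same for every gene, from at most 45.2% in the squares to at least 70.2% in the diamonds.

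Wider lists of lipid genes were counted in the same way, against the share of all genes in the table that each cluster listed (Hepatocyte4 54.7%, Hepatocyte5 54.3%, Hepatocyte3 7.67%, Hepatocyte1 10.5%, Hepatocyte2 3.49%). The list of other oxidation genes had 21 of 44 in the table. Of these, 15 were in Hepatocyte4, 10 in Hepatocyte5, 5 in Hepatocyte3 and 1 each in Hepatocyte1 and Hepatocyte2. The share of the 21 lay above the background in Hepatocyte4 and Hepatocyte3 and below it in Hepatocyte5. No test of these counts was made, and nothing particular to oxidation genes is read from them. Slc27a5, the bile acid and very long chain acyl-CoA synthetase, had the largest gap of this list, with 96.0% of Hepatocyte5 against 19.5%, and rank 7 of 871. In Hepatocyte4, its gap of 40.8 points ranked 258 of 877. Abcd3, a peroxisomal transporter of fatty acids, was found in 74.6% of Hepatocyte4 against 21.7% and in 85.4% of Hepatocyte5 against 30.5%. Cyp4a12a, an ω-hydroxylase of fatty acids, was found in 62.7% against 13.5% and in 80.8% against 21.5%. Singled out after their values were seen, the 5 in Hepatocyte3 were Etfb, Hsd17b10, Ech1, Phyh and Crot, with differences from -2.2 points (Crot) to 6.5 points (Etfb).

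Of 34 other genes of fatty acid and triglyceride metabolism, 10 were listed, 6 for Hepatocyte4 and 6 for Hepatocyte5, near the backgrounds of 54.7% and 54.3%. Agpat3, an acyltransferase of phosphatidic acid synthesis, reached 84.1% of Hepatocyte5 against 19.3%, and Pemt, which makes phosphatidylcholine from phosphatidylethanolamine, 80.1% against 20.8%. Lpin1 and Lpin2 are phosphatidate phosphatases. Lpin1 was found in 50.6% of Hepatocyte4 against 9.7%, and Lpin2 in 56.1% of Hepatocyte4 against 17.0% and 74.2% of Hepatocyte5 against 23.3%.

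Of 23 other cholesterol synthesis genes, 6 were listed, 3 for Hepatocyte4 (below its background of 54.7%) and 5 for Hepatocyte5 (background 54.3%). Ebp, a sterol isomerase, reached 88.1% of Hepatocyte5 against 20.3%. Sc5d, a sterol desaturase, was found in 42.0% of Hepatocyte4 against 5.6% and in 58.9% of Hepatocyte5 against 11.5%.

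Of 21 regulators and lipid handling genes, 8 were listed, 5 for Hepatocyte4 (background 54.7%) and 7 for Hepatocyte5 (background 54.3%). With so few genes, nothing particular to these lists is read from the counts. Angptl4, a lipase inhibitor induced by fasting, was found in 55.3% of Hepatocyte4 against 11.9% and in 89.4% of Hepatocyte5 against 18.7%. Creb3l3, a liver factor that works with PPARα in fasting, was found in 70.3% against 25.8% and in 95.4% against 32.9%. Scap, the escort of SREBP factors, was found in 60.3% of Hepatocyte5 against 6.3%, and Mlxipl, the carbohydrate response factor ChREBP, in 55% against 5.4%.

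**Figure D4:**
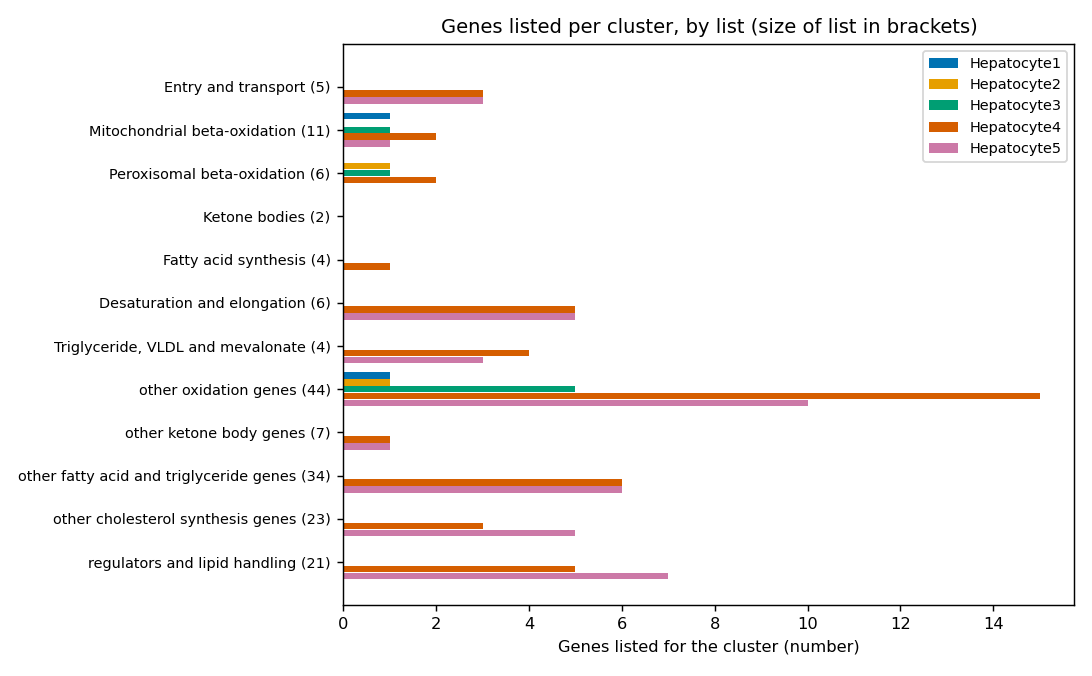
Number of genes listed (x axis) for each hepatocyte cluster (bar colour) in each list of lipid genes (y axis, with the size of the list in brackets). The 7 upper lists divide the 38 genes by role and the 5 lower lists hold further genes of the pathways. Desaturation and elongation has 5 of 6 genes in both Hepatocyte4 and Hepatocyte5, and the ketone body pair has 0 in every cluster.

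Against all other cells, 12 of the 38 genes were listed. Hepatocyte4 listed all 12, where it listed 25.2% of the genes in that table, and Hepatocyte5 listed 11 of them (background 24.7%). These backgrounds include many genes listed for other cell types, as T cells alone listed 598 of the 1755. The contrast is therefore one of hepatocyte genes with genes of all cell types, and nothing particular to lipid genes is read from it. Outside the hepatocytes, 2 genes were listed. Fads2 was listed for the joint cluster of fibroblasts and HSC, the hepatic stellate cells (background 30.5%), with 73.7% of cells against 37.5% of all other cells. Its gap of 36.2 points ranked 439 of 535 genes there, where the median gap was 51.8 points. Acsl5 was listed for T cells (background 34.1%), with 37.8% against 32.8%. That gap of 5 points ranked 557 of 598, where the median was 26.2 points. Of the markers set for these cell types, the stellate cluster listed 4 of 5 and the T cell cluster 4 of 4, and the stellate cluster was computed to hold 0.171% of all cells.

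The shares of a gene in a cluster were not the same in both tables. Gpam was detected in 43.6% of Hepatocyte4 in the hepatocyte table and in 74.9% in the table of all cells, and Fads2 in 59.3% and 82.5%. Over the 12 genes, the share in Hepatocyte4 was higher in the table of all cells for 11, with a median difference of 11.7 points and a range from 0.1 points for Acsl1 to 31.3 points for Gpam. In Hepatocyte5 it was higher for 7 of 11 genes and within 0.1 points for 4. Over all 385 genes that both tables list for Hepatocyte4 it was higher for 361 (median 13.9 points). Over all 409 that both list for Hepatocyte5 it was higher for 304 and within 0.1 points for 96 (median 5.3 points). The computed size of Hepatocyte4 was 18.13% of hepatocytes from one table and 18.15% from the other. What was done to the values of the table of all cells is not given in the sources used here, they may have been corrected between libraries, and the cause of the difference was not tested. The shares of Fads2 and Acsl5 in non-hepatocytes rest on that table alone.

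**Figure D5:**
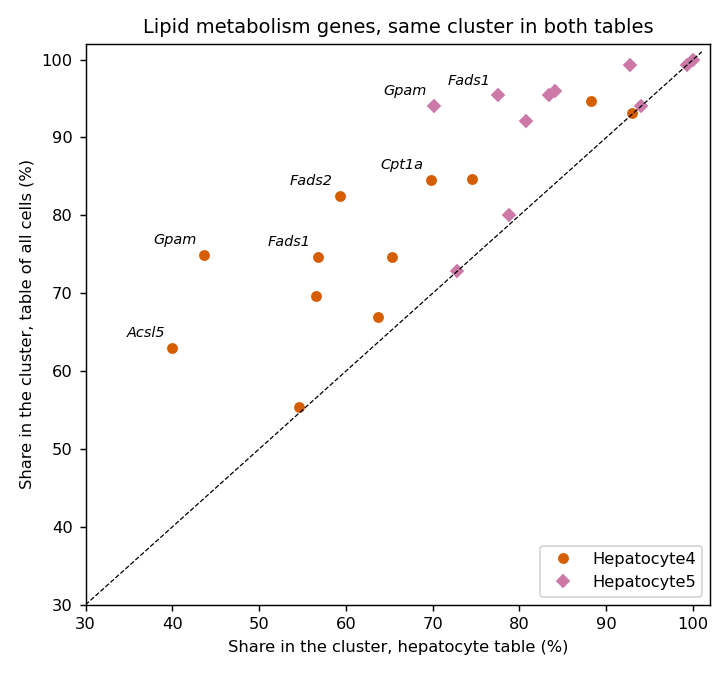
Cells of the same cluster with the gene detected, for the listed lipid genes in the hepatocyte table (x axis, %) and in the table of all cells (y axis, %). Circles are Hepatocyte4, diamonds Hepatocyte5, and the dashed line marks equality. All points lie on or above the line, Gpam in Hepatocyte4 farthest, at 43.6% and 74.9%.

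Transcript length differed between the genes of these clusters. The 18 genes listed for Hepatocyte4 or Hepatocyte5 had a median longest transcript of 3462 bases in GENCODE M21 (range 2048 to 6172), and the 4 listed for Hepatocyte1 to Hepatocyte3 had 1868 (1137 to 2640). Over all genes with a length the medians were 3559 and 1093 bases. The part of length in the shares was not tested.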

How the data were processed

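scRNA-seq of hepatocytes gave 2 libraries, 1 from PBS-treated and 1 from rIL-33-treated mice. The authors aligned reads to mm10, counted UMIs with Cell Ranger, left out cells with many genes (possible doublets), few genes or mostly mitochondrial transcripts, scaled each cell to a common total, took natural logs, clustered a merged matrix with Seurat and then searched each cluster for markers. Libraries were pooled, and UMI counts and depth per library were not analysed here.

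The deposited tables give each share as a fraction, once for the cluster and once for its reference cells, of those with any value above 0. They were converted to percentages. The deposited columns of fold changes and p-values hold the authors' own comparisons. They were not used, except to read the limit of 0.25 on the log2 scale above which all rows lie. In the hepatocyte table, 7 rows with a date in place of a gene name were left out.

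Cluster sizes were fitted by least squares, since a gene's share over all hepatocytes is the same whichever cluster lists it (486 genes, root mean square residual 0.0181 points) and checked on data with known sizes. Shares in the clusters that do not list a gene were solved from these sizes. Gene coordinates and lengths are from GENCODE M21 (GRCm38, the assembly called mm10) and start windows from RefSeq (GRCm38.p6). Of the 38 genes, 31 had a window. Proteins were not analysed here. Windows of 89 bases in the last 500 bases of all protein-coding transcripts of a gene were searched in all annotated transcripts. Intervals for counting error were not computed, because the tables hold no cell numbers, and no test was run. Genes and lists were chosen with earlier results of these data known. All 22 listed genes are described, and from each wider list up to 4 genes with the largest difference in share. Some genes that this rule would name are not reported here. Alternatives were stricter rows and the table of all cells. Python 3.11.15, NumPy 2.4.6, pandas 2.3.3 and matplotlib 3.10.9 were used.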

Additional observations from a re-analysis of the deposited data

How the results depend on the processing

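With rows at least 10 points higher in the cluster, Hepatocyte4 and Hepatocyte5 listed the same number of the 38 genes (17 and 12). Hepatocyte1 listed 0 in place of 1 and Hepatocyte3 0 in place of 2. The share of all genes under this stricter rule was not computed, so nothing particular to lipid genes is read from these counts. With rows that had the higher share in the cluster, Hepatocyte1 also listed 0, where 8 of its 169 genes had such a row. In the table of all cells, Hepatocyte1, Hepatocyte2 and Hepatocyte3 listed 0, Hepatocyte4 12 and Hepatocyte5 11. Of its 1755 genes, that table listed only 31, 10 and 37 for Hepatocyte1, Hepatocyte2 and Hepatocyte3, so nothing is read from the counts of 0. It listed 443 for Hepatocyte4 and 434 for Hepatocyte5. That table gave median differences of 35.9 points in Hepatocyte4 and 47.5 points in Hepatocyte5, in place of 45.7 and 62.2, beside 33.8 and 44.6 points over all genes it lists for these clusters, and the cause was not tested. The solved shares moved by at most 0.02 points with cluster sizes from the table of all cells. Leaving out a library was not possible, and the depth per cell limits every comparison of shares between clusters.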
